A study of Homo sapiens with 8 samples.

Results

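The 43 genes described here encode the machinery of DNA replication and its G1/S control, and were taken by gene symbol from 3 deposited expression tables. All 43 were found in each table, of 18744 genes in the MS8815 table, 18398 in the MS8815N table and 18320 in the EPZ-6438 table. RNA was sequenced from SUDHL6 cells, a human line established from a diffuse large B-cell lymphoma of germinal-centre type. The cells were kept for 18 h in 2.5 µM MS8815, 2.5 µM MS8815N, 2.5 µM EPZ-6438 or the DMSO vehicle, with 2 libraries for each treatment. In the study's design MS8815 is the PROTAC, one that brings the histone methyltransferase EZH2 to a ubiquitin ligase for degradation. MS8815N is described as a non-PROTAC analog and EPZ-6438 (tazemetostat) as the matched inhibitor of the catalytic domain. Whether the 2 libraries of a treatment were grown apart is not given, and the p-values rest on library-to-library spread that may be purely technical.

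Before a cell copies its DNA, the origin recognition complex, CDC6 and CDT1 load the MCM2-7 helicase onto chromatin, a step called licensing. At the start of S phase, CDC45 and the GINS complex turn the loaded helicase into its active form, polymerase alpha-primase lays down primers, the RFC complex loads the PCNA clamp, and polymerases delta and epsilon extend the strands. FEN1 and LIG1 join the fragments of the lagging strand, while ribonucleotide reductase and thymidylate synthase supply deoxynucleotides. Many of these genes are transcribed by E2F factors, which are released from RB as cyclin E and its kinase become active at the G1/S boundary. Germinal-centre B-cell lymphomas are known for rapid proliferation.

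E2F factors bind a short GC-rich element, and the promoters of 4 members are shown because they hold matches to it near the start site. The RRM2 promoter is shown because RRM2 was the member lowest relative to DMSO in the MS8815 libraries and holds no such match. The stretches are RefSeq promoters (GRCh38.p14), from 130 bases before to 30 bases after the start site, read 5′ to 3′ on the gene's own strand. Capitals mark the E2F-type match in the first 4 and each CCAAT in RRM2. Copies of CCAAT in the first 4 are not marked.

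CDC6 (chr17:40287749-40287908, plus strand): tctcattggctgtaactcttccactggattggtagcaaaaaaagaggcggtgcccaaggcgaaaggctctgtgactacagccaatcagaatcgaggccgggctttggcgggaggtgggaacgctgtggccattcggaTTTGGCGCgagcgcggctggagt
GINS2 (chr16:85688925-85689084, minus strand): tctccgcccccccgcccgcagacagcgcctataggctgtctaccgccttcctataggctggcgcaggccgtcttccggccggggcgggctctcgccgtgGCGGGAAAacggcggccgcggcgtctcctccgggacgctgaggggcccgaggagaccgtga
PCNA (chr20:5126593-5126752, minus strand): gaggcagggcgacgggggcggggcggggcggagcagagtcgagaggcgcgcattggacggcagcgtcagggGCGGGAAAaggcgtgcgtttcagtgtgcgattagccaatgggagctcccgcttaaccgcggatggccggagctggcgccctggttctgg
E2F1 (chr20:33686356-33686515, minus strand): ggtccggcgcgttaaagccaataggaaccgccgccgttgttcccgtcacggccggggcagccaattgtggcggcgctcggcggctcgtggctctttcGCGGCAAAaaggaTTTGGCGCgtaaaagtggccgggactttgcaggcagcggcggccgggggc
RRM2 (chr2:10122609-10122768, plus strand): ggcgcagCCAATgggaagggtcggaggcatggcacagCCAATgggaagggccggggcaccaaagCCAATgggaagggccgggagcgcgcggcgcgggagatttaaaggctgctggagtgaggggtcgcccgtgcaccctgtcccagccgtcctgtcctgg

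The letters searched were TTTCCCGC, TTTCGCGC, TTTGCCGC and TTTGGCGC on either strand, over windows from 250 bases before to 50 bases after the start site. Of the 38 members with a RefSeq promoter in the table, 19 (50%) held at least 1 match in any of their promoters. Among all 27305 genes of the promoter table the share was 3.99%. Of the 26 matches in these 19 genes, 18 lay within 60 bases of the start site, counted with the first transcribed base as base 1. That of CDC6 began at base 8 after it, that of GINS2 at base -31, that of PCNA at base -59, and those of E2F1 at bases -33 and -20. The pair of matches in the MCM2 promoter overlapped, as did both pairs in that of MCM6, and 1 match in that of MCM7 overlapped a CCAAT match. The letters CCAAT, read on either strand and chosen after the values were seen, occurred in 22 of the 38 members (57.9%) and in 39.7% of all genes. RRM2 held 3 copies in its window, and 3.26% of all promoters held at least that many. In the printed stretches CDC6 held 3 copies as well, PCNA and E2F1 held 2 each and GINS2 held 0. These matches describe letters only.

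**Figure D1:**
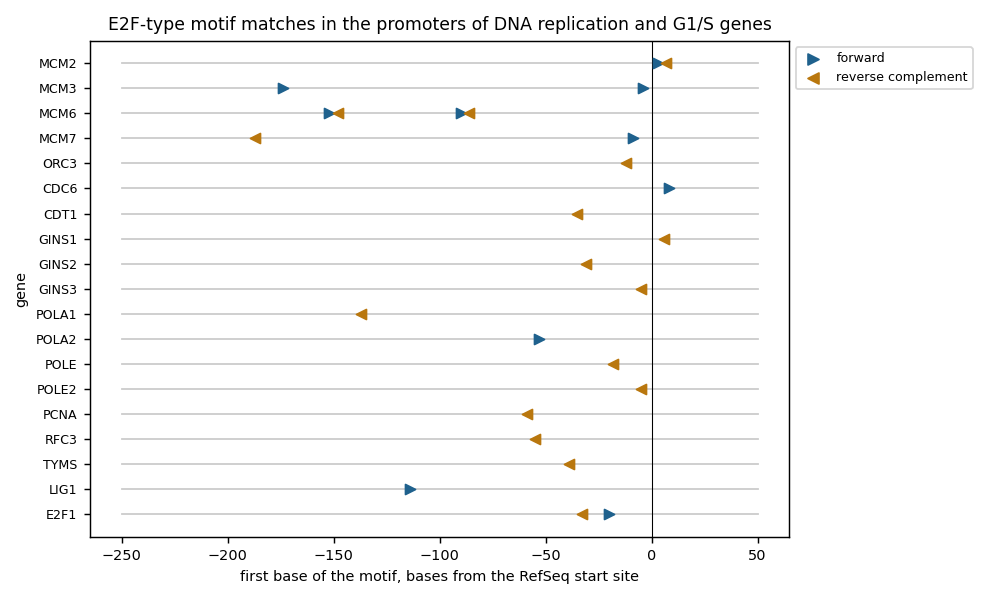
Position of each E2F-type match (triangle, pointing in the direction of the match) relative to the RefSeq start site, for the 19 members with a match, one row per gene. The horizontal axis gives bases from the start site over the 300 bases searched. Of 26 matches 18 lie within 60 bases of the start site, and MCM3, MCM6, MCM7, POLA1 and LIG1 hold the others, further upstream.

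The MS8815 libraries stood apart from the other 6. Their depth, estimated from the values, was 12.99 M and 14.64 M reads, where M is 1e6 reads, against 26.1 M to 34.1 M elsewhere. The spread within groups was read only among genes above the median level. There the median gene differed by 0.11 on the log2 scale between the 2 MS8815 libraries, against 0.06 in each other group. B-cell genes were present in every library. CD79A, a subunit of the B-cell receptor, had 16539 and 16776 normalised counts in the MS8815 libraries, 32032 and 31850 in the MS8815N libraries, 31380 and 31373 in the EPZ-6438 libraries, and 30662 and 31876 in the DMSO libraries. The 24 B-cell markers measured in all tables summed to 126066 and 126794 in the MS8815 libraries and to between 247320 and 249591 in the other 6. Markers of adherent cells, which a lymphoma line should hold at low levels, summed over 33 genes to 77135 and 78788 in the MS8815 libraries, 6882 and 6705 in the MS8815N libraries, 6142 and 6073 in the EPZ-6438 libraries, and 5074 and 4583 in the DMSO libraries, with none at 0. The keratin KRT8 was at 5183 and 5139 in the MS8815 libraries, against 316 and 303 in the DMSO libraries. Markers of T and NK cells summed to between 63.8 and 118.4 in all 8 libraries.

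Members of every step of replication were lower with MS8815 than with DMSO on the deposited scale, and most of them, like most genes, were higher when scaled to B-cell markers. By limma on the deposited values with Benjamini-Hochberg adjustment over all genes of the table, 37 of the 43 members fell (adjusted p under 0.05) and 0 rose, where 22.4% of all genes of the table were called lower and 24.5% higher. Genes within the level range of the members were called lower in 56% of cases, so the share of members, 86.0%, is to be read against that figure too. The median log2 fold change of the members was -0.52 (range -1.15 to -0.05), against -0.30 over genes of the same level range and -8.05e-05 over all genes, and for 41 members both MS8815 libraries lay below both DMSO libraries (35.9% of all genes). The 6 members that did not pass were ORC3, ORC6, PRIM1, PRIM2, E2F1 and CCNE2. The direction depended on the scale. When the libraries were scaled to equal B-cell markers, which shifted the median of all genes to 1.02, 37 members (86.0%) were called higher and 0 lower, with a median of 0.53, where 71.8% of all genes were called higher. This scaling takes the B-cell markers as unchanged per B cell, which was not tested. On the deposited scale the log2 fold changes of these markers ranged from -2.22 to -0.43. The scaling divides each library by a single factor, so the members and the all-gene median move by nearly the same amount. All 43 therefore stayed below that median, by 0.49 for the median member against 0.52 on the deposited scale. This follows from the scaling and is no separate result. After quantile normalisation 25 of the 37 kept their call, where 28.9% of all genes were called lower, with a median of -0.30 against -0.20 over all genes. MCM3 (0.04), ORC3 (0.08), CDT1 (0.05) and E2F1 (0.13) were then above 0, none of them called. The calls lost were those of MCM3, ORC2, ORC4, CDC6, CDT1, GINS4, POLD1, POLD3, POLE, RFC5, RRM1 and TYMS. Without DMSO replicate 1 the count of lower members was 22 and without DMSO replicate 2 it was 24, fits in which the remaining DMSO library is assumed to vary like the MS8815 pair. Both fits lost the calls of ORC1, ORC2, ORC4, ORC5, CDC6, CDT1, GINS4, POLD1, POLD3, POLE2, RFC2, RFC5 and CCNE1, and the fit without DMSO replicate 1 also those of MCM10 and POLE. In bulk RNA, fewer cells of a type and less RNA per cell cannot be told apart. The parts that the adherent-cell RNA and the lower depth of the MS8815 libraries play in these values were not tested. Below, "fell" refers to the deposited scale.

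**Figure D2:**
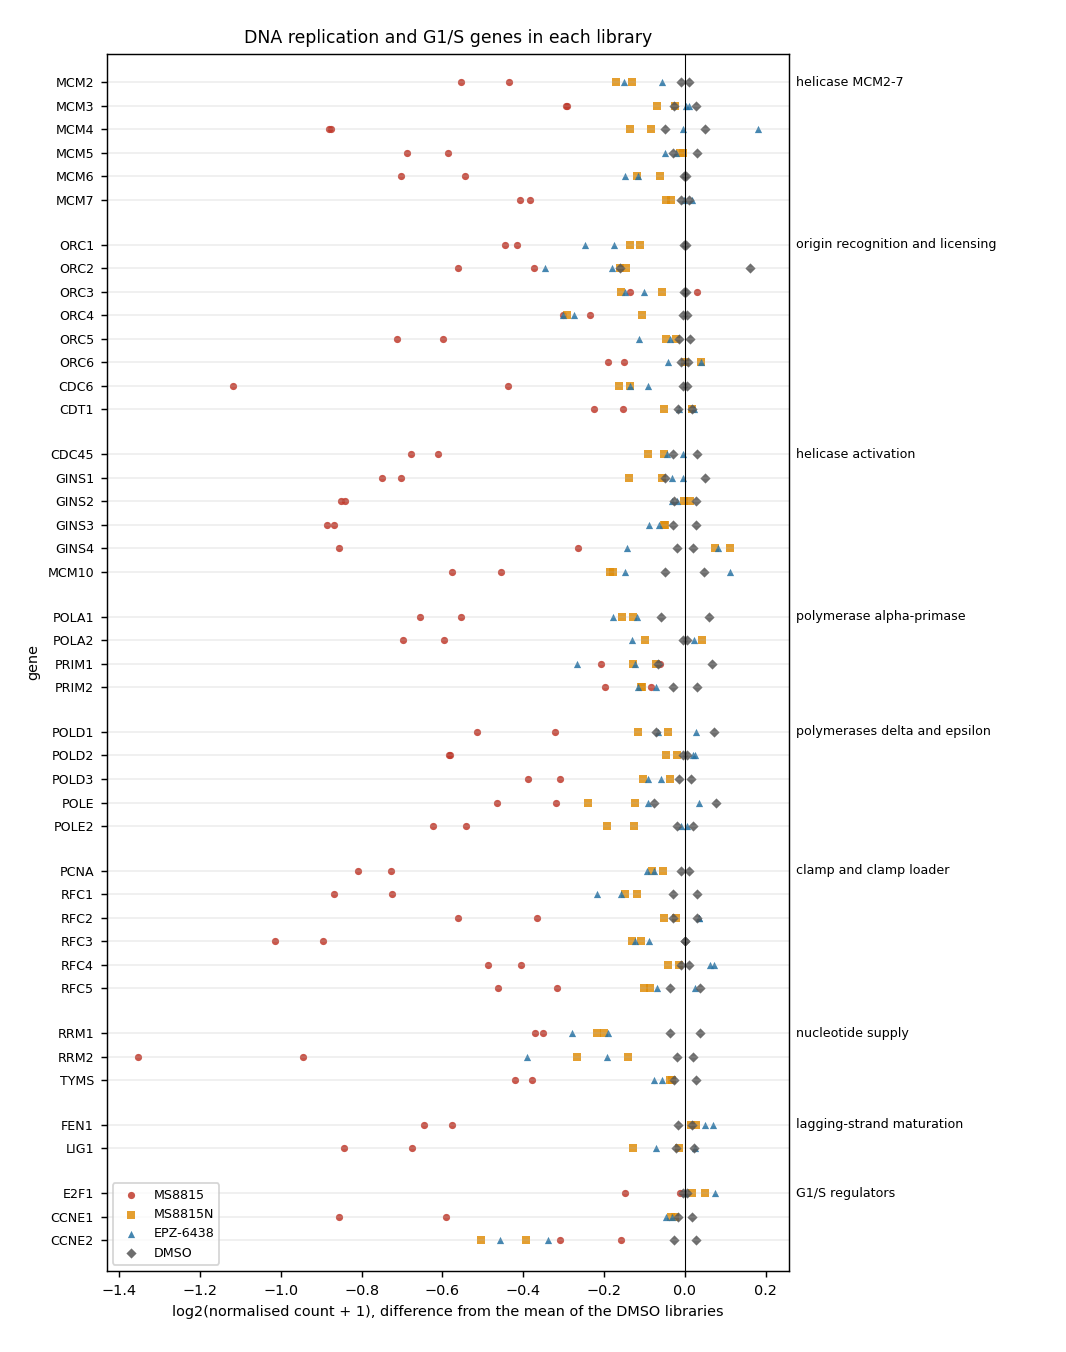
Log2(normalised count + 1) of each of the 43 genes in each library, as the difference from the mean of the 2 DMSO libraries, in rows grouped by role. Each symbol is 1 library. The MS8815 symbols lie left of the others for most genes and overlap in range with the DMSO symbols only for ORC3 and PRIM1. Scaling to B-cell markers, whose medians in the MS8815 libraries were -1.07 and -1.02, would move all MS8815 symbols to the right by that much.

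All 6 genes of the MCM2-7 helicase, the ring that unwinds DNA at the fork, fell with MS8815 (median -0.56), and when scaled to B-cell markers 5 were called higher, with MCM4 at 0.17 (adjusted p = 0.0906). MCM4 had 1299 and 1305 normalised counts in the MS8815 libraries, 2257 and 2178 in the MS8815N libraries and 2713 and 2385 in the EPZ-6438 libraries, against 2314 and 2477 in the DMSO libraries. Both MS8815 libraries were clearly below the other 6, at 54.4% of the DMSO mean, and 1 EPZ-6438 library exceeded both DMSO libraries. The log2 fold change of MCM4 was -0.88 ± 0.07 (SE), adjusted p = 0.000362. MCM5 had 8384 and 8996 normalised counts in the MS8815 libraries, 13395 and 13458 in the MS8815N libraries and 13304 and 13057 in the EPZ-6438 libraries, against 13793 and 13223 in the DMSO libraries. It too was separated in the MS8815 pair alone (-0.64 ± 0.05 (SE), adjusted p = 0.000199), while the MS8815N and EPZ-6438 means were 99.4% and 97.6% of the DMSO mean. MCM2 had 8804 and 8111 normalised counts in the MS8815 libraries, 10588 and 10872 in the MS8815N libraries and 11453 and 10723 in the EPZ-6438 libraries, against 11825 and 11997 in the DMSO libraries. Here all 6 compound libraries lay below the DMSO pair, those with MS8815 furthest (-0.50 ± 0.05 (SE), adjusted p = 0.000595). The remaining subunits were at 81.5% (MCM3), 65% (MCM6) and 76% (MCM7) of DMSO with MS8815.

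Among the 8 origin recognition and licensing genes, 6 fell with MS8815 (median -0.35), and all 8 had values above 0 when scaled to B-cell markers. After quantile normalisation 2 of them kept their call, ORC1 and ORC5, and without either DMSO library 0 did. Of all genes 28.9% were called lower after quantile normalisation, so the share of this group was not above that of all genes. ORC1, an ATPase subunit of the origin recognition complex whose level changes through the cell cycle, had 1789 and 1827 normalised counts in the MS8815 libraries, 2255 and 2217 in the MS8815N libraries and 2054 and 2155 in the EPZ-6438 libraries, against 2439 and 2434 in the DMSO libraries. Its levels were lowest with MS8815 (-0.43 ± 0.06 (SE), adjusted p = 0.00267), and the MS8815N and EPZ-6438 libraries also lay below DMSO. ORC3, another subunit of the complex, had 1650 and 1850 normalised counts in the MS8815 libraries, 1624 and 1744 in the MS8815N libraries and 1690 and 1636 in the EPZ-6438 libraries, against 1810 and 1816 in the DMSO libraries. The MS8815 pair of ORC3 spanned the DMSO values and its difference from DMSO did not pass the test (-0.05 ± 0.08 (SE), adjusted p = 0.635). The other subunits were at log2 fold changes of -0.47 (ORC2), -0.27 (ORC4), -0.65 (ORC5) and -0.17 (ORC6), the last not called (adjusted p = 0.089). CDC6, which brings the helicase to the origin, had 2174 and 1358 normalised counts in the MS8815 libraries, 2630 and 2679 in the MS8815N libraries and 2767 and 2682 in the EPZ-6438 libraries, against 2936 and 2956 in the DMSO libraries. The MS8815 libraries of CDC6 disagreed more than those of most members, though both stayed below all others (-0.78 ± 0.21 (SE), adjusted p = 0.0187). CDT1, its partner in loading, had 4334 and 4124 normalised counts in the MS8815 libraries, 4644 and 4873 in the MS8815N libraries and 4892 and 4769 in the EPZ-6438 libraries, against 4761 and 4875 in the DMSO libraries. The MS8815 values of CDT1 were the lowest of the 8 but by a small margin (-0.19 ± 0.05 (SE), adjusted p = 0.0283), and after quantile normalisation its log2 fold change was 0.05.

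All 6 genes of helicase activation fell with MS8815 (median -0.69), and all 6 had values above 0 when scaled to B-cell markers. CDC45, which joins MCM2-7 in the active helicase, had 1989 and 2084 normalised counts in the MS8815 libraries, 3068 and 2985 in the MS8815N libraries and 3168 and 3082 in the EPZ-6438 libraries, against 3248 and 3115 in the DMSO libraries. The MS8815 pair was at 64% of DMSO (-0.64 ± 0.06 (SE), adjusted p = 0.000546), the MS8815N pair lay just below the DMSO pair, and the EPZ-6438 pair overlapped it. GINS2, a subunit of the GINS complex, had 1861 and 1872 normalised counts in the MS8815 libraries, 3386 and 3348 in the MS8815N libraries and 3283 and 3313 in the EPZ-6438 libraries, against 3420 and 3294 in the DMSO libraries. Its MS8815 libraries were nearly equal, at 55.6% of DMSO (-0.85 ± 0.06 (SE), adjusted p = 0.000179), and the MS8815N and EPZ-6438 values lay among the DMSO values or just outside them. The other GINS subunits were at 60.4% (GINS1), 54.4% (GINS3) and 69.2% (GINS4) of DMSO, and MCM10, a factor that helps to start the active helicase, was at 69.9%. For GINS4 the pair of MS8815 libraries differed, at 2247 and 1492 normalised counts.

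The genes of polymerase alpha-primase divided. The polymerase subunits POLA1 and POLA2 fell with MS8815 and the primase subunits PRIM1 and PRIM2 did not pass the test. When scaled to B-cell markers all 4 were called higher. POLA1, the catalytic subunit, had 4264 and 3973 normalised counts in the MS8815 libraries, 5727 and 5618 in the MS8815N libraries and 5532 and 5769 in the EPZ-6438 libraries, against 6523 and 6016 in the DMSO libraries. All compound libraries were below the DMSO pair, and MS8815 was lowest (-0.61 ± 0.06 (SE), adjusted p = 0.000713). PRIM1, the catalytic primase subunit, had 997 and 1103 normalised counts in the MS8815 libraries, 1095 and 1051 in the MS8815N libraries and 957 and 1056 in the EPZ-6438 libraries, against 1098 and 1205 in the DMSO libraries. Its libraries overlapped between MS8815 and DMSO (-0.13 ± 0.10 (SE), adjusted p = 0.334), and the lowest value was in an EPZ-6438 library. POLA2 was at -0.65 and PRIM2 at -0.14 (adjusted p = 0.234). All 5 genes of polymerases delta and epsilon fell with MS8815 (median -0.42), and all were above 0 when scaled to B-cell markers. After quantile normalisation 2 kept their call, POLD2 and POLE2, where 28.9% of all genes were called lower. POLE, the catalytic subunit of the leading-strand polymerase, had 4171 and 4616 normalised counts in the MS8815 libraries, 5290 and 4879 in the MS8815N libraries and 5407 and 5906 in the EPZ-6438 libraries, against 6080 and 5460 in the DMSO libraries. The MS8815 libraries were lowest, and the MS8815N pair lay below both DMSO libraries as well (-0.39 ± 0.08 (SE), adjusted p = 0.00776 for MS8815). The others ranged from -0.35 for POLD3 to -0.58 for POLD2, both accessory subunits of polymerase delta.

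The clamp and its loader fell in 6 of 6 genes with MS8815 (median -0.62, and above 0 for all 6 when scaled to B-cell markers). PCNA, the sliding clamp, had 10297 and 10897 normalised counts in the MS8815 libraries, 17051 and 17374 in the MS8815N libraries and 16918 and 17107 in the EPZ-6438 libraries, against 17934 and 18166 in the DMSO libraries. Its 2 MS8815 libraries averaged 58.7% of the DMSO mean and lay far below the rest, with the smallest adjusted p among the members (-0.77 ± 0.04 (SE), adjusted p = 5.94e-05). RFC3, a small subunit of the clamp loader, had 2917 and 3168 normalised counts in the MS8815 libraries, 5388 and 5472 in the MS8815N libraries and 5540 and 5409 in the EPZ-6438 libraries, against 5894 and 5900 in the DMSO libraries. MS8815 again held the lowest pair, at 51.6% of DMSO (-0.96 ± 0.06 (SE), adjusted p = 9.63e-05). The large subunit RFC1 was at 57.6% and the small subunits RFC2, RFC4 and RFC5 were at 72.6%, 73.4% and 76.4%. The lagging-strand genes fell in both cases (above 0 when scaled to B-cell markers), the flap nuclease FEN1 to 65.5% and the ligase LIG1 to 59.2% of DMSO.

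Of the 3 nucleotide supply genes all fell with MS8815 (RRM1 and TYMS were called higher when scaled to B-cell markers), and RRM2 was the member furthest below DMSO. After quantile normalisation RRM2 alone kept its call, with RRM1 at -0.03 (adjusted p = 0.515) and TYMS at -0.07 (adjusted p = 0.214). Of all genes 28.9% were called lower on that scale. RRM2, the small subunit of ribonucleotide reductase and the one whose level limits the enzyme in S phase, had 6949 and 9231 normalised counts in the MS8815 libraries, 16107 and 14762 in the MS8815N libraries and 13561 and 15548 in the EPZ-6438 libraries, against 17512 and 18028 in the DMSO libraries. Its MS8815 libraries averaged 45.5% of DMSO (-1.15 ± 0.13 (SE), adjusted p = 0.000506), and the MS8815N and EPZ-6438 libraries were all below the DMSO pair too. RRM2 was the only member whose log2 fold change stayed below 0 when scaled to B-cell markers, at -0.10 (adjusted p = 0.498). TYMS, which makes thymidylate, had 7285 and 7502 normalised counts in the MS8815 libraries, 9496 and 9536 in the MS8815N libraries and 9241 and 9366 in the EPZ-6438 libraries, against 9567 and 9926 in the DMSO libraries. The MS8815 pair was lowest at 75.9% of DMSO (-0.40 ± 0.04 (SE), adjusted p = 0.000802), and the value was 0.65 when scaled to B-cell markers. RRM1, the large subunit, had 8304 and 8423 normalised counts in the MS8815 libraries, 9231 and 9343 in the MS8815N libraries and 8846 and 9406 in the EPZ-6438 libraries, against 11021 and 10463 in the DMSO libraries. All 6 compound libraries were below the DMSO pair, and MS8815 was lowest (-0.36 ± 0.04 (SE), adjusted p = 0.00104).

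The G1/S regulators did not move as a block. CCNE1, which encodes cyclin E1, had 1134 and 1363 normalised counts in the MS8815 libraries, 2019 and 2004 in the MS8815N libraries and 1988 and 2008 in the EPZ-6438 libraries, against 2078 and 2030 in the DMSO libraries. It fell with MS8815 to 60.8% of DMSO (-0.72 ± 0.10 (SE), adjusted p = 0.00211, and 0.32 when scaled to B-cell markers), while the other compounds were at 97.9% and 97.3% of DMSO. E2F1, the transcription factor, had 3163 and 2877 normalised counts in the MS8815 libraries, 3304 and 3229 in the MS8815N libraries and 3360 and 3193 in the EPZ-6438 libraries, against 3181 and 3201 in the DMSO libraries. The MS8815 pair lay just below the DMSO pair, the MS8815N pair just above it and the EPZ-6438 pair overlapping it, and the difference between MS8815 and DMSO did not pass the test (-0.08 ± 0.07 (SE), adjusted p = 0.373). CCNE2, which encodes cyclin E2, had 1114 and 1004 normalised counts in the MS8815 libraries, 877 and 946 in the MS8815N libraries and 984 and 906 in the EPZ-6438 libraries, against 1267 and 1221 in the DMSO libraries. All 6 compound libraries lay below both DMSO libraries, and the lowest were those with MS8815N and EPZ-6438, not those with MS8815. The log2 fold changes of CCNE2 were -0.23 ± 0.09 (SE), adjusted p = 0.0939 with MS8815, -0.45 ± 0.07 (SE), adjusted p = 0.0588 with MS8815N, and -0.40 ± 0.07 (SE), adjusted p = 0.0921 with EPZ-6438. None passed the threshold in these fits, though some alternative fits called CCNE2 lower with each compound. These 3 comparisons share their DMSO libraries. CCNE2 was the only member with its lowest mean in the MS8815N group. ORC3, ORC4 and PRIM1 had theirs in the EPZ-6438 group, and the other 39 in the MS8815 group.

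**Figure D3:**
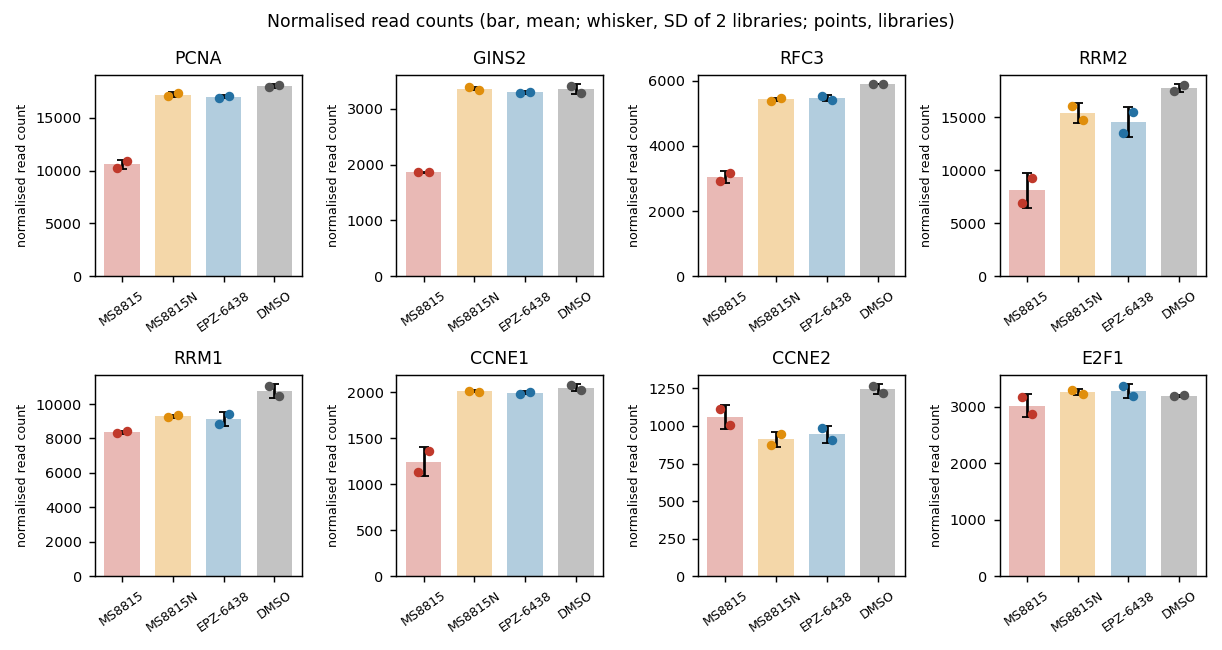
Normalised read counts of 8 of the genes in the MS8815, MS8815N, EPZ-6438 and DMSO libraries, each on its own axis from 0, with points for libraries, bars for means and whiskers for the SD of 2 libraries. PCNA, GINS2, RFC3, RRM2 and CCNE1 show their lowest bar with MS8815, CCNE2 its lowest bars with MS8815N and EPZ-6438 (means 911 and 945, against 1244 with DMSO), and E2F1 bars at 94.7%, 102% and 103% of DMSO.

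Ratios between members of the same library do not change when a library is scaled by a single factor, as with B-cell markers. Quantile normalisation can change them, and they were read on the deposited scale only. They were read for pairs of genes with related roles, chosen with their values known, as a description, on the log2 scale relative to the DMSO mean. The RRM2 to RRM1 ratio was -0.98 and -0.59 in the MS8815 libraries, and was between -0.11 and 0.08 in the MS8815N and EPZ-6438 libraries. Within MCM2-7, the MCM4 to MCM3 ratio was -0.59 and -0.58 with MS8815, -0.06 and -0.07 with MS8815N, and 0.18 and -0.02 with EPZ-6438. Within the clamp loader the RFC3 to RFC4 ratio was -0.61 and -0.41 with MS8815, -0.09 and -0.09 with MS8815N, and -0.16 and -0.19 with EPZ-6438, against 0.01 and -0.01 with DMSO, so that it was below the DMSO values in all 6 compound libraries. The CCNE2 to CCNE1 ratio was higher in the MS8815 libraries (0.70 and 0.28) and lower in the MS8815N libraries (-0.48 and -0.36) and EPZ-6438 libraries (-0.29 and -0.42) than with DMSO (0.01 and -0.01). For the other 3 of the ratios given, the DMSO libraries lay within 0.08 of their mean. Also read were the ratios of CCNE2 and of CCNE1 to E2F1, of CDC6 to CDT1 and of POLA1 to PRIM1. CDC6 to CDT1 was at -0.29 and -0.89 in the MS8815 libraries. POLA1 to PRIM1 was at -0.35 and -0.60 there, with the DMSO libraries at 0.13 and -0.13.

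With MS8815N, 0 of the 43 members passed the test against DMSO (limma, Benjamini-Hochberg adjustment over all genes; smallest adjusted p = 0.0588, for CCNE2), where 0.245% of all genes were called lower and 0.288% higher. At an unadjusted p under 0.05, 15 members were lower and 0 higher, against 9.04% and 6.69% of all genes. The members' median was -0.08 (range -0.45 to 0.09), 38 of 43 values were below 0 (49% of all genes, 68% of those in the same level range), and the median over that level range was -0.05. For 30 members both MS8815N libraries lay below both DMSO libraries, and for 2 above (23.2% and 23.5% of all genes). After quantile normalisation the median was -0.03. RRM1 and RRM2 stood at -0.21 (adjusted p = 0.0643) and -0.20 (adjusted p = 0.0907), and MCM10 and POLE at -0.18 and -0.18. When genes in the lower 50% by level were removed, or without a trend in the variance, 3 members (6.98%) were called lower, CCNE2, RRM1 and MCM2, where 2.84% of genes were called lower with that removal and 0.913% without the trend. With EPZ-6438, 0 of 43 members passed (smallest adjusted p = 0.0902, for ORC4 and RRM1), where 0.0164% of all genes were called in each direction. At an unadjusted p under 0.05, 12 were lower and 0 higher, against 9.57% and 7.22% of all genes. The median was -0.04 (range -0.40 to 0.09), 34 of 43 values were below 0 (48.8% of all genes, 69.7% of those in the same level range), and the median over that level range was -0.05. For 21 members the EPZ-6438 libraries lay below both DMSO libraries and for 4 above (23.8% and 24.3% of all genes). After quantile normalisation the median was 0.01. The lowest after CCNE2 were RRM2 at -0.29 (adjusted p = 0.0995), ORC4 at -0.29 (adjusted p = 0.0902), ORC2 at -0.26 and RRM1 at -0.24 (adjusted p = 0.0902). With the lower 50% of genes removed, 4 members (9.3%), CCNE2, ORC4, RRM1 and RRM2, were called lower, where 2.47% of genes were. In 18 of the 43 members all 6 compound libraries lay below both DMSO libraries, against 10.7% of all genes. The share in the members' level range was not counted. All compounds were set against the same DMSO libraries, so these are not separate results.

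The compounds were given at the same dose and time, and their difference was tested directly in all 8 libraries joined on a common scale, over 17467 genes and 3 pairs of compounds. Between MS8815 and its non-PROTAC analog MS8815N, 36 of 43 members were lower with MS8815 and 0 higher (limma, adjusted over all genes of the pair), where 26.3% of genes were called lower and 24.2% higher, and 55.2% lower in the members' level range. The median difference was -0.42, against -0.24 over genes in the members' level range and -0.05 over all genes. When scaled to B-cell markers, 40 were higher and 0 lower, where 76.3% of all genes were higher, and the members' median of 0.58 lay below the 0.94 of all genes. After quantile normalisation 27 were lower and 0 higher (34.2% and 20.2% of all genes). On the deposited scale the largest differences were -0.95 (95% interval -1.22 to -0.67, adjusted p = 0.000285) for RRM2, -0.85 (95% interval -0.95 to -0.75, adjusted p = 2.03e-06) for GINS2 and -0.84 (95% interval -0.94 to -0.73, adjusted p = 2.89e-06) for RFC3. The 7 that did not pass were ORC2, ORC3, ORC4, PRIM1, PRIM2, E2F1 and CCNE2. For CCNE2 the difference was positive, 0.22 (95% interval 0.02 to 0.41, adjusted p = 0.0685). POLE was close to the threshold, at -0.21 (95% interval -0.39 to -0.04, adjusted p = 0.0476). Between MS8815 and EPZ-6438, 36 members were lower with MS8815 and 0 higher (26.3% and 24.2% of all genes, 54% lower in the level range). The members' median was -0.50, against -0.23 over genes in their level range and -0.05 over all genes. When scaled to B-cell markers, 40 were higher and 0 lower, where 76.8% of all genes were higher, and the members' median of 0.56 lay below the 0.99 of all genes. After quantile normalisation 26 were lower (34.5% of all genes) and 1 higher (20.6%). That 1 was RRM1, at -0.13 (adjusted p = 0.029) on the deposited scale and 0.13 (adjusted p = 0.031) after quantile normalisation. On the deposited scale RRM2 was at -0.86 (95% interval -1.14 to -0.58, adjusted p = 0.00049), RFC3 at -0.85 (95% interval -0.96 to -0.74, adjusted p = 2.56e-06), MCM4 at -0.97 (95% interval -1.13 to -0.80, adjusted p = 1.38e-05) and PCNA at -0.68 (95% interval -0.76 to -0.61, adjusted p = 9.94e-07). ORC3, ORC4, PRIM1 and CCNE2 had values above 0, and none of the 4 passed. The MS8815 libraries are common to both of these comparisons. Between MS8815N and EPZ-6438, 0 members passed by limma (smallest adjusted p = 0.711), where 0.00573% of all genes were called lower and 0.166% higher. At an unadjusted p under 0.05, 1 was lower, MCM4 at -0.20 (95% interval -0.37 to -0.03, adjusted p = 0.711), and 0 higher, against 2.95% and 3.17% of all genes. The median difference was -0.0038 (range -0.20 to 0.12). The median 95% interval reached 0.13 to either side of the estimate on the log2 scale, and the widest bounds were -0.44 for CDC6 and 0.50 for GINS4, so smaller differences of these genes were not resolved here.

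**Figure D4:**
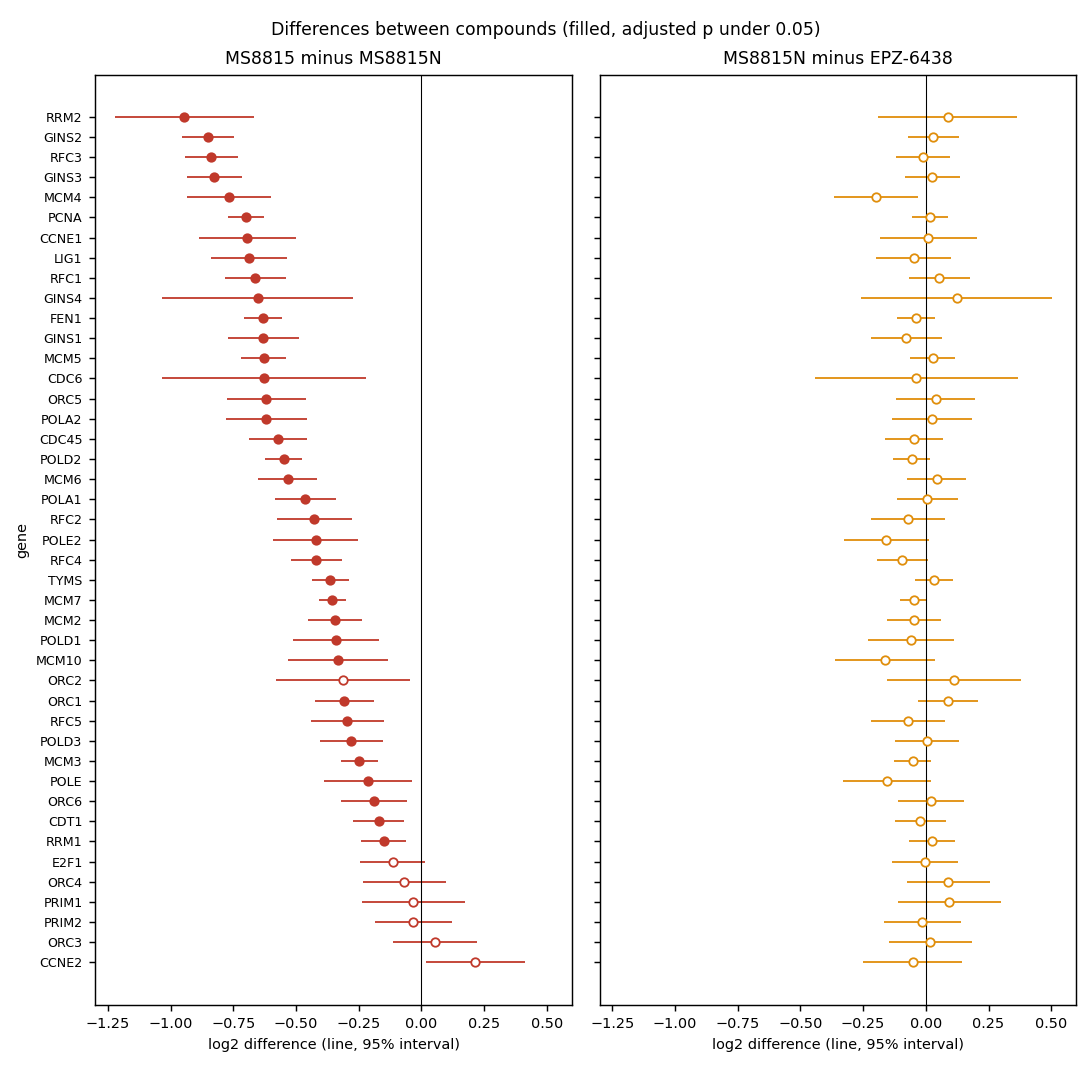
Log2 differences of the 43 genes between MS8815 and MS8815N (left) and between MS8815N and EPZ-6438 (right), with 95% intervals as lines, filled where the adjusted p is under 0.05. On the left 36 genes are filled and lie below 0 on this scale (40 are called above 0 when scaled to B-cell markers, as are 76.3% of all genes), and on the right no gene is filled and most intervals span 0.

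Other gene lists were read beside the members in the same tables. With MS8815, 22.4% of all genes were called lower and 24.5% higher, and 56% were called lower in the members' level range. Of 37 further replication factors, 33 fell and 0 rose with MS8815 (median -0.47), among them DCK, a nucleoside kinase of the salvage pathway (-1.06), RNASEH1, which removes RNA from RNA-DNA hybrids (-0.83), DUT, which breaks down dUTP (-0.75), and TOP1, the topoisomerase ahead of the fork (-0.71). Of 28 further G1/S control genes, 15 fell and 7 rose (median -0.33), with the share that rose close to that of all genes. MYBL2, an E2F-driven transcription factor, was at -1.06 and CCNA2, cyclin A2, at -0.91, while CCND1, cyclin D1, was at 4.17 and the kinase inhibitor CDKN1A at 3.73. Of 23 mitosis genes 20 fell and 1 rose (median -0.59), including the kinase PLK1 (-1.14) and the mitotic kinase CDK1 (-0.95). Of 22 ribosome biogenesis genes 20 fell and 0 rose (median -0.55), including the nucleolar protein NCL (-0.88). Of 24 B-cell markers 23 fell (median -1.01), and of 35 adherent-cell markers 33 rose (range 0.04 to 4.92). Of 4 measured myeloid markers 2 rose, and 0 of the 3 measured genes of T or NK cells were called. The myeloid markers were at low levels, summing to 311 and 342 normalised counts with MS8815 and 211 and 271 with DMSO. CD14, which rose, had 17.1 and 33.4 normalised counts with MS8815 and 4.6 and 1.5 with DMSO. When scaled to B-cell markers the medians were above 0 for the further replication factors (0.58), G1/S control (0.72), mitosis (0.45) and ribosome biogenesis (0.50), and each lay below the all-gene median of 1.02. With MS8815N, DCK was the only gene called among the further replication factors (-0.20, adjusted p = 0.04997 by limma, and 0.122 after quantile normalisation), and 0 genes of the further G1/S, mitosis and ribosome lists passed by limma. At an unadjusted p under 0.05, where 9.04% of all genes were lower and 6.69% higher with MS8815N, 14 of the 37 further replication factors were lower and 0 higher. For 28 further G1/S genes the counts were 9 and 1, for 23 mitosis genes 9 and 0, and for 22 ribosome genes 3 and 0. With EPZ-6438, 0 genes of the further replication, G1/S, mitosis and ribosome lists passed by limma, and at an unadjusted p under 0.05 (9.57% and 7.22% of all genes) the lower and higher genes were 11 and 1 of the 37 replication factors, 7 and 0 of the G1/S genes, 9 and 1 of the mitosis genes and 4 and 0 of the ribosome genes.

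**Figure D5:**
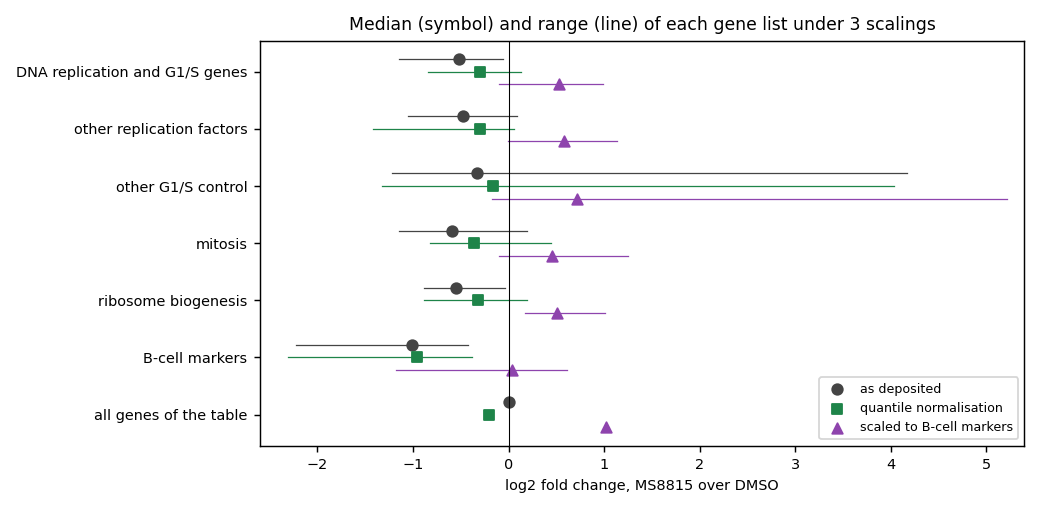
Log2 fold changes of MS8815 over DMSO for the 43 genes and other gene lists on the deposited scale, after quantile normalisation and when scaled to B-cell markers. Symbols are list medians and lines the range over genes (no line for all genes). The 43 genes have medians of -0.52, -0.30 and 0.53, and all genes of the table -8.05e-05, -0.20 and 1.02. Scaling to B-cell markers moves every list by nearly the same amount.

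Among the matched members, the 19 with an E2F-type match in a promoter had a median log2 fold change of -0.61 with MS8815 on the deposited scale (range -0.96 to -0.05), and the 19 without had a median of -0.46 (range -1.15 to -0.13). The ranges overlapped almost fully. CDC6, GINS2, PCNA and E2F1, whose promoters are printed above with matches, had -0.78, -0.85, -0.77 and -0.08, and RRM2, with none in its window, had -1.15. ORC3, with a match at base -12, was at -0.05. No difference between members with and without a match was tested.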

How the data were processed

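The members and gene lists were chosen with earlier results of these data known. Libraries were made from total RNA with either of 2 commercial kits, and which library had which kit is not given in the sources used here. STAR 2.4.2, Salmon and the GRCh38 build are named, without their roles, in the submitters' processing notes. The authors deposited 1 table for each of the 3 compounds, with the 2 DMSO libraries repeated in all of them, in values that per the table names went through DESeq2's variance stabilisation and lie on a scale akin to log2. Because a difference on that scale is not a log2 fold change, the transform was inverted to normalised counts with its closed form. The DMSO libraries of different tables then differed by 1 constant per gene and library (largest deviation 7e-11 on the log2 scale, 17219 genes), and these constants put all 8 libraries on the scale of the MS8815N table.

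Each compound was compared with DMSO by limma 3.58.1 (R 4.3.3) with a variance trend, two-sided, on the deposited values of its own table, with Benjamini-Hochberg adjustment over all genes and a threshold of 0.05. Log2 fold changes, SE and 95% intervals came from limma on log2(normalised count + 1). Pairs of compounds were compared by limma on that scale over the 17467 genes shared by all tables. The main fit of each compound against DMSO was checked on simulated data with 200 changed genes and libraries of equal depth. The fits between compounds and the alternatives were not checked in this way. Depth was estimated from the value of 1 read, on which 35.5% to 63.0% of low values fell within a tolerance of 0.02 of a multiple (4% by chance). Alternatives covered quantile normalisation, scaling to B-cell markers, removal of the lower 50% of genes by level, pseudocounts of 0.1 and 5, no variance trend, a replicate block, limma on log2 counts, the joined fit and each library left out.

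Values in every library are given for 15 genes of the main roles and for the members with the 3 highest and 3 lowest log2 fold changes with MS8815, and of other lists up to 4 genes with the smallest p. Genes named outside this rule were chosen after their values were seen. Promoters were matched by symbol to RefSeq (GRCh38.p14).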

Additional observations from a re-analysis of the deposited data

How the results depend on the processing

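Alternatives that changed a call, a direction or a count are listed first for MS8815 against DMSO. After quantile normalisation the median log2 fold change of the 43 genes was -0.30, and MCM3 (0.0356), ORC3 (0.0767), CDT1 (0.0465) and E2F1 (0.126) were above 0. That alternative left 25 of 37 calls. With limma on log2 counts GINS4 lost its call, and in the joined fit of 8 libraries CCNE2 was called lower. When scaled to B-cell markers, which moved the median of all genes to 1.02 and called 71.8% of them higher, 37 members were called higher and 0 lower, with a median of 0.53, and the log2 fold changes were 0.55 for MCM2, 0.17 for MCM4, 0.41 for MCM5, 0.62 for ORC1, 0.99 for ORC3, 0.27 for CDC6, 0.86 for CDT1, 0.40 for CDC45, 0.20 for GINS2, 0.44 for POLA1, 0.91 for PRIM1, 0.66 for POLE, 0.28 for PCNA, 0.0924 for RFC3, 0.65 for TYMS, 0.97 for E2F1, 0.32 for CCNE1 and 0.81 for CCNE2. Leaving out 1 library at a time gave 22 to 35 lower members. In such fits a lone library is assumed to vary like the others. Between MS8815 and MS8815N, MCM3 was at 0.019997 after quantile normalisation. When scaled to B-cell markers, which moved the median of all genes to 0.94 and called 76.3% of them higher, 40 members were higher with MS8815 than with MS8815N, with MCM3 at 0.76, PCNA at 0.31, GINS2 at 0.15, RRM2 at 0.0606, RFC3 at 0.17, POLE at 0.79 and E2F1 at 0.89. Likewise 40 were higher than with EPZ-6438 (all-gene median 0.99, 76.8% called higher), with MCM3 at 0.76, PCNA at 0.37, GINS2 at 0.24, RRM2 at 0.20, RFC3 at 0.21, POLE at 0.69 and E2F1 at 0.94. Between MS8815 and EPZ-6438, RRM1 was called lower (-0.13) on the deposited scale and higher (0.13, adjusted p = 0.031) after quantile normalisation. POLE lost its call between MS8815 and MS8815N in most alternatives, its adjusted p reaching 0.987. The cause was not tested.

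For MS8815N against DMSO the median was -0.0308 after quantile normalisation and -0.0361 when scaled to B-cell markers, and -0.0870 to -0.0617 with 1 library left out. With the lower 50% of genes removed 3 members were called, and 3 without a variance trend. For EPZ-6438 against DMSO the median was 0.0113 after quantile normalisation, -0.0493 when scaled to B-cell markers and -0.0656 to -0.0566 with 1 library left out, and 4 members were called with the lower 50% of genes removed.

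The replicate numbers only share a digit, with 2 numbers in each group, and are not a pairing by the labels. Deviations of same-numbered libraries correlated at 0.285 between MS8815N and DMSO, 0.0478 between EPZ-6438 and DMSO and -0.0122 between MS8815 and DMSO. With a replicate block 4 members were called lower for MS8815N, CCNE2, RRM1, RRM2 and MCM2 (1.29% of all genes were called lower), 0 for EPZ-6438 and 37 for MS8815. The duplicates, the lower depth of the MS8815 libraries and the unknown kit of each library limit all comparisons.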
